A study of Mus musculus with 17 samples.

Results

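Leukaemia inhibitory factor (LIF) was given to mouse plasmacytoid dendritic cells (pDC) together with CpG-B, and 3 arrays of CpG-B + LIF were set against 3 arrays of CpG-B, 6 of the 17 arrays in the series. The arrays were chosen by their titles, and all 19751 genes with a probe set of exactly 1 gene symbol were tested. The cells came from bone marrow of C57BL/6 mice, were enriched with magnetic beads by removing other cells, and were then sorted for intermediate CD11c with B220 and Siglec-H. CpG-B + LIF cells had LIF at 10 ng/ml for 1 h, then 6 µg/ml of CpG-B (oligonucleotide 1826) for a further 19 to 23 h, so that LIF was present for 20 to 24 h. CpG-B cells had the same CpG-B without LIF. The sample names word the order as CpG-B and then LIF, and the design text gives 18 to 24 h of CpG, so both points are uncertain in the labels. The other arrays were 3 of CpG-A + LIF, 3 of CpG-A, 3 of LIF alone and 2 of medium. The labels do not say whether replicates came from separate mice, so p-values measure only the spread between these samples, which may be technical.

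LIF binds a receptor made of LIFR and gp130 (Il6st), which activates JAK kinases and the transcription factor STAT3. STAT3 induces SOCS3, which shuts the receptor down again. pDC sense unmethylated CpG DNA through TLR9 in endosomes. CpG-B is known for NF-kB target genes and surface maturation, CpG-A for strong type I interferon, which in turn drives interferon-stimulated genes. The pDC state depends on the E protein TCF4, which ID2 antagonises.

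The deposited intensities have lost their decimal marks, so a log2 difference between groups is known only up to multiples of log2(10), which is 3.32. Each difference is given as its nearest reading between -1.66 and 1.66, CpG-B + LIF minus CpG-B on the log2 scale, with its SE. A called gene reads higher or lower where this reading is at most 1.11 in size, because any reading of the opposite sign would be a change of 4.64-fold or more; a larger change of the same sign remains possible. Beyond 1.11 the direction is unknown and 2 readings are given. Over the 19751 genes, 16 lay beyond that limit, and the median size of a reading was 0.12 with a median SE of 0.15. Levels cannot be read from such a table, so the pDC identity of the cells could not be checked against the level of their markers. The median over all genes lay between -0.01 and 0.01 on each of the 6 arrays, relative to the CpG-B mean.

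Upstream sequences are shown for genes whose values follow below: 4 interferon-stimulated genes (Ifi203, Irgm1, Slfn5, Stat2) and the called gene Jaml with a match to the interferon-stimulated response element (ISRE), and Siglech and Socs3 with a match to the STAT motif. The ISRE was searched as GAAA, any 2 bases, GAAA, and the STAT motif as TTCNNNGAA, on both strands. Each line is a stretch of 100 bases around the match, from within the 250 bases before a RefSeq transcript start, 5′ to 3′ on the gene's strand, with the matches in capitals.
Ifi203: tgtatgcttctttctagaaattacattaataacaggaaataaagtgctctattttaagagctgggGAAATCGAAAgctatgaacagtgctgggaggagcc
Irgm1: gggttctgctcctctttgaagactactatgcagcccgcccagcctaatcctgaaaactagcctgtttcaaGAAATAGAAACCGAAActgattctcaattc
Slfn5: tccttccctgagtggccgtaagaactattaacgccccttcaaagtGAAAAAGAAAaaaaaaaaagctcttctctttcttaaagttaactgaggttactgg
Stat2: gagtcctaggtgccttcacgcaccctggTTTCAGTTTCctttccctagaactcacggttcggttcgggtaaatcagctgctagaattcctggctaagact
Jaml: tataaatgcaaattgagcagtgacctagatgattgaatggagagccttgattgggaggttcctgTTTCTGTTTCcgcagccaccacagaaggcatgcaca
Siglech: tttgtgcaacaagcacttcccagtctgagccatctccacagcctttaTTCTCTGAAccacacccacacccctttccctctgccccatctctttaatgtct
Socs3: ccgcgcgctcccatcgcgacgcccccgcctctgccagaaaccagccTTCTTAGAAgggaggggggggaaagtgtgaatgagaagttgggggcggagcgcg
In RefSeq's GRCm38.p6 these are chr1:173942493-173942592 on the minus strand for Ifi203, chr11:48871421-48871520 on the minus strand for Irgm1, chr11:82951902-82952001 on the plus strand for Slfn5, chr10:128270248-128270347 on the plus strand for Stat2, chr9:45079083-45079182 on the plus strand for Jaml, chr7:55768014-55768113 on the plus strand for Siglech and chr11:117969467-117969566 on the minus strand for Socs3. The matches lie 35 to 26 bases before the start in Ifi203, 155 to 146 in Slfn5, 222 to 213 in Stat2, 36 to 27 in Jaml, 123 to 115 in Siglech and 154 to 146 in Socs3. In Irgm1 there are 2 that overlap, 30 to 21 and 24 to 15 bases before the start. Over windows from 250 bases before to 50 after the start, 21 of the 38 interferon-stimulated genes with a window (55.3%) held an ISRE match, against 4.0% of all 27025 genes with one. The STAT motif was in 8 of 36 STAT3 target genes with a window (22.2%), against 9.6% of all genes. It was also in 11 of the 38 interferon-stimulated genes (28.9%), so it was not particular to STAT3 targets. Of the 12 called genes described next, 10 had a window: Jaml and Cldn7 held an ISRE match and Cldn7 a STAT match. The NF-kB motif (GGG, any 2 bases, TTTCC) was in 0 of these 10, against 1.9% of all genes. A match describes letters and is not a bound site.

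Adding LIF to CpG-B changed few genes past the test. By limma with Benjamini-Hochberg adjustment over all genes, 12 were called at an adjusted p under 0.05, which is 0.0608% of those tested. Vmn1r174, Osbpl3 and Nefh read higher (0.0152%), St8sia1, Arl14, Jaml, Cdh1, Mctp2 and Nrp1 read lower (0.0304%), and Map2k3os, Xcl1 and Cldn7 had no readable direction (0.0152%). At an unadjusted p under 0.05 there were 1529 genes (7.74%), of which 846 had a reading above 0 and 683 below 0. With the replicate number as a block, 19 genes were called (0.0962%), 4 of them higher (0.0203%) and 11 lower (0.0557%), and 10 were among the 12.

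Osbpl3, a lipid transfer protein of the oxysterol-binding family, stood at 0.96, 0.64 and 0.85 with LIF, against -0.01, 0.16 and -0.15 without it, for replicates 1 to 3 relative to the CpG-B mean. The reading was 0.82 ± 0.13, a 1.76-fold difference (adjusted p = 0.0374). Vmn1r174, a vomeronasal receptor gene, stood at 1.21, 0.73 and 0.81 with LIF, against 0.01, -0.08 and 0.06 without it (0.91 ± 0.15, adjusted p = 0.0374). In both genes every CpG-B + LIF array lay above every CpG-B array. Nefh, the neurofilament heavy chain, stood at 0.76, 0.56 and 0.75 with LIF, against -0.11, 0.18 and -0.06 without it (0.69 ± 0.12, adjusted p = 0.0443), also without overlap.

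Among the genes that read lower, Arl14 had the smallest adjusted p. This small GTPase of the ARF-like family, known in human dendritic cells for a part in moving MHC class II, stood at -1.16, -0.94 and -0.84 with LIF, against 0.03, -0.06 and 0.03 without it (-0.98 ± 0.14, adjusted p = 0.0185). St8sia1, which makes the ganglioside GD3, stood at -1.37, -1.08 and -0.78 with LIF, against -0.08, 0.41 and -0.33 without it (-1.07 ± 0.18, adjusted p = 0.0374). The CpG-B arrays were further apart for St8sia1 than for Arl14, and in neither gene did the groups overlap.

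The other 4 lower genes encode membrane proteins. Jaml, a junctional adhesion molecule of leukocytes, stood at -0.88, -0.58 and -1.37 with LIF, against -0.11, 0.09 and 0.02 without it (-0.94 ± 0.16). Cdh1, which encodes the adhesion protein E-cadherin, stood at -1.04, -1.0 and -0.52 with LIF, against -0.27, 0.24 and 0.03 without it (-0.85 ± 0.15). Nrp1, a co-receptor for semaphorins and VEGF used as a surface marker of human pDC, stood at -0.80, -0.65 and -0.86 with LIF, against -0.19, 0.25 and -0.06 without it (-0.77 ± 0.13). No CpG-B + LIF array of these genes reached the lowest CpG-B array. Mctp2, a membrane protein with C2 domains, stood at -0.94, -0.55 and -0.84 with LIF, against -0.16, 0.19 and -0.04 without it (-0.78 ± 0.14). Adjusted p-values were 0.0374 for Jaml, 0.0443 for Cdh1, 0.0416 for Nrp1 and 0.0443 for Mctp2.

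For the remaining 3 called genes the reading was too large for a direction. Map2k3os, a transcript antisense to the kinase gene Map2k3, had the smallest adjusted p of the comparison (0.00724), with 1.24 ± 0.16 or -2.08. On the nearest reading it stood at 1.10, 1.11 and 1.50 with LIF, against -0.20, 0.14 and 0.06 without it. Map2k3 itself read -0.06 ± 0.22, and whether the probes separate the 2 strands is not given in the sources used here. Xcl1, a chemokine for XCR1-bearing dendritic cells, stood at -2.09, -0.85 and -1.56 with LIF, against -0.38, 0.58 and -0.20 without it (-1.50 ± 0.25 or 1.82, adjusted p = 0.0374). Cldn7, a claudin of tight junctions, stood at 0.92, 1.21 and 1.53 with LIF, against 0.16, -0.19 and 0.03 without it (1.22 ± 0.21 or -2.10, adjusted p = 0.0374). The Xcl1 arrays had the wider spread in both groups.

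**Figure D1:**
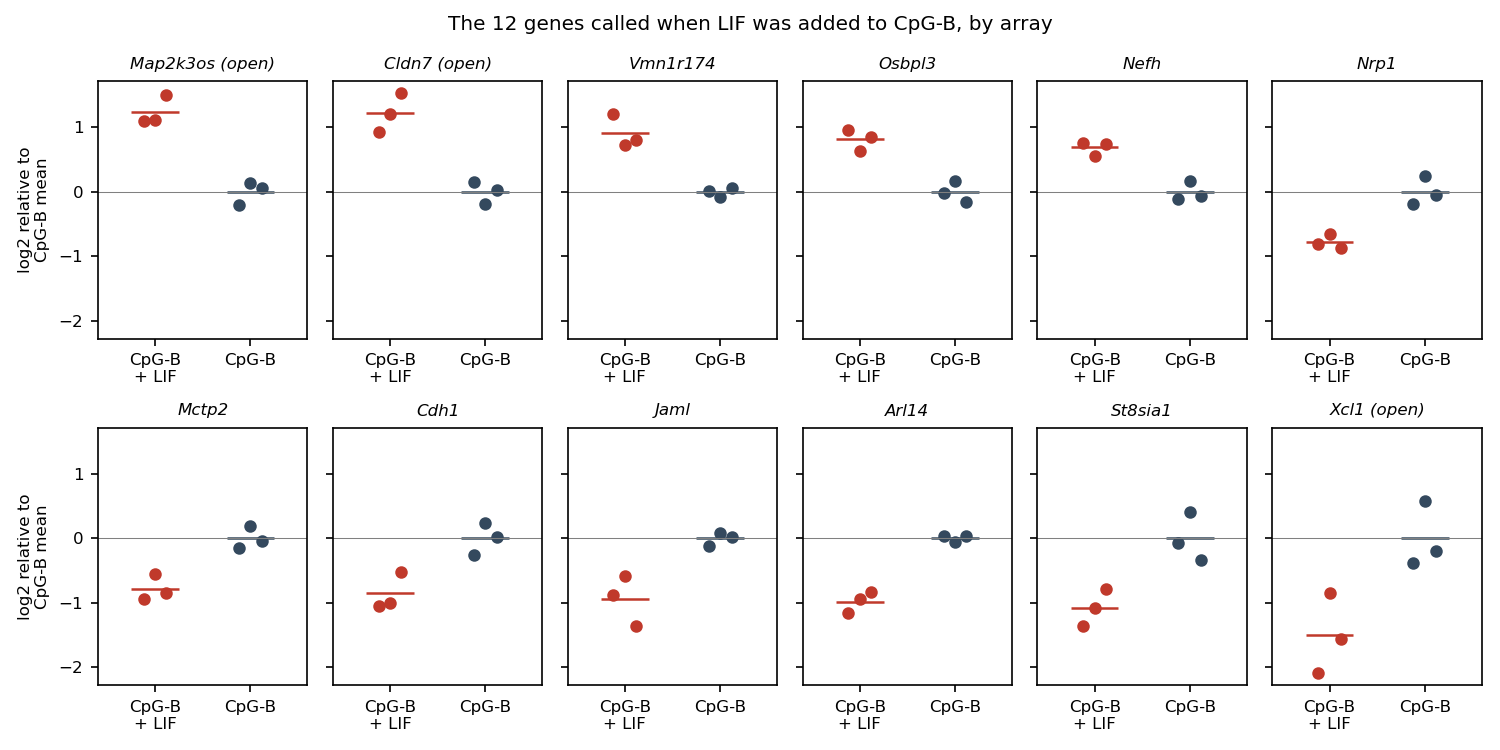
Values of the 12 called genes on each array, log2 relative to the CpG-B mean on the nearest reading; points are arrays (3 CpG-B + LIF on the left, 3 CpG-B on the right) and short lines are group means. The groups do not overlap in any panel, and for the 3 panels marked open the direction cannot be read.

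The number of calls rested on which arrays were used. It was 1, 9 and 5 without CpG-B + LIF replicates 1, 2 and 3, and 7, 1 and 4 without CpG-B replicates 1, 2 and 3. With only the 6 arrays of the comparison in the fit, limma called 0 genes (1691 at an unadjusted p under 0.05), and with the block and any 1 replicate number left out of all groups it also called 0 (1117, 1756 and 1044 unadjusted).

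The block added 9 calls, of which 2 belong to the pDC surface list. The SEs here and in the next paragraph are those of the fit without the block (for Itgax the SE with the block was 0.13). Siglech, the receptor on which the cells had been sorted, stood at -0.89, -0.41 and -0.80 with LIF, against -0.01, 0.17 and -0.15 without it. Its reading was -0.70 ± 0.13, with an adjusted p of 0.0468 with the block and 0.0603 without it. Smim5, a small membrane protein gene, stood at -1.27, -0.63 and -1.05 with LIF, against -0.30, 0.35 and -0.05 without it (-0.98 ± 0.20, adjusted p = 0.0233 with the block and 0.0831 without it). In both genes replicate 2 was the highest array of its group. Itgax, which encodes the sorted protein CD11c, stood at 1.07, 0.73 and 0.80 with LIF, against 0.46, -0.31 and -0.14 without it (0.87 ± 0.21, adjusted p = 0.0233 with the block and 0.177 without it).

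Among the other genes added by the block, S1pr3, a receptor for sphingosine-1-phosphate, read 1.03 ± 0.19 and was called with the block (adjusted p = 0.0233). Hpse, which encodes heparanase, read -0.86 ± 0.26, the adaptor gene Sla2 -0.74 ± 0.18, Tsc22d1 -0.83 ± 0.16 and the predicted gene Gm10684 -0.69 ± 0.13. The tubulin gene Tubb3 read -1.16 ± 0.21 or 2.16. Each of these was called only with the block, while Nefh and Mctp2 were called only without it (adjusted p = 0.0506 and 0.0520 with it).

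Genes of the pDC surface leaned to readings below 0. Of 28 measured members none was called without the block and 2 with it, 23 readings were below 0 (49.0% of all genes were), and the median was -0.18, against 0.00 over all genes. At an unadjusted p under 0.05, 9 were lower (3.46% of all genes) and 0 higher (4.28% of all genes). Besides Siglech and Smim5 these included Pacsin1, a membrane-bending protein, at -0.82, -0.49 and -0.63 with LIF, against -0.13, 0.05 and 0.08 without it (-0.64 ± 0.15, adjusted p = 0.126). They also included the gut-homing receptor Ccr9 (-0.43 ± 0.13) and Tlr7, the receptor for single-stranded RNA (-0.37 ± 0.14). In all 9 of them the groups did not overlap, but they had been picked by that p-value, so this adds little. Of the 28 members, 11 were lower and 1 higher without overlap, against 6.67% and 7.23% of all genes. In bulk RNA, fewer cells of a type and less RNA per cell cannot be told apart.

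Transcription factors of pDC had smaller readings. Of 22 measured members, 15 were below 0 (median -0.15), and 1 passed an unadjusted p under 0.05. This was Tcf4, at -0.34, -0.22 and -0.24 with LIF, against -0.13, 0.17 and -0.04 without it (-0.27 ± 0.11, adjusted p = 0.602). Spib, an ETS factor of pDC, read -0.29 ± 0.15, and the interferon regulatory factors Irf7 and Irf8 read -0.32 ± 0.19 and -0.17 ± 0.13. Id2, the antagonist of E proteins, read 0.25 ± 0.16, and Flt3, a growth factor receptor of dendritic cells, -0.18 ± 0.15, both with overlapping groups.

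Markers of other cell types were counted beside these, where 4.28% of all genes were higher and 3.46% lower at an unadjusted p under 0.05. Of 19 markers of conventional dendritic cells, 3 were higher (15.8%: Itgax, Clec4a4 and Xcr1) and 0 lower, and of 15 B cell markers 3 were higher (20%: Cd22, Blk and Cd79b) and 0 lower. Both shares are above that of all genes, but the lists did not lean as a whole. Of the conventional dendritic cell markers 10 of 19 readings were below 0 (median -0.0006), Clec9a at -0.36 ± 0.18 and Zbtb46 at -0.30 ± 0.15 among them. Of the B cell markers 9 of 15 were below 0 (median -0.02), with Cd79a at -0.43 ± 0.22. T cell markers had 1 higher and 2 lower of 12, NK cell markers 1 and 1 of 12, monocyte and macrophage markers 1 and 0 of 24, and neutrophil markers 0 and 0 of 16. Mast cell and basophil markers had 0 higher and 2 lower of 12, erythroid markers 0 and 1 of 9, and plasma cell markers 1 and 0 of 7. The list medians lay between -0.14 for T cells and 0.19 for neutrophils. The part of other cells in these readings was not tested.

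Interferon-stimulated genes had more members lower at an unadjusted p under 0.05 than any other list counted here. None of the 50 measured members was called, but 39 readings were below 0 and the median was -0.24. At an unadjusted p under 0.05, 17 were lower (34%, against 3.46% of all genes) and 0 higher. The smaller pDC surface list had a share close to this, 32.1%. For 22 members every CpG-B + LIF array lay below every CpG-B array, as for 6.67% of all genes. The medians of the list on the arrays were -0.17, -0.27 and -0.25 with LIF, against 0.05, -0.04 and -0.01 without it. The count of 17 was 10 without CpG-B + LIF replicate 2 or 3, 11 without CpG-B replicate 1 or 2, and 10 and 8 with the block and replicate 1 or replicate 3 left out of all groups.

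Iigp1, an interferon-induced GTPase that attacks vacuoles of intracellular parasites, stood at -0.98, -1.05 and -1.04 with LIF, against 0.02, -0.06 and 0.04 without it (-1.02 ± 0.22, adjusted p = 0.107). The antiviral GTPase gene Mx1 stood at -0.50, -0.57 and -0.46 with LIF, against 0.02, -0.02 and 0.00 without it (-0.51 ± 0.14, adjusted p = 0.279). In both genes the arrays of a group lay close together and the groups well apart. Slfn5, a Schlafen family member, read -0.71 ± 0.21, Ifi203, of the DNA-sensing p200 family, -0.50 ± 0.14, and Herc6, a ubiquitin ligase gene of the ISG15 pathway, -0.54 ± 0.15. Irgm1, a regulator of the immunity GTPases, read -0.39 ± 0.13, and Stat2, the interferon signal transducer, -0.36 ± 0.13. Ifi203, Irgm1, Slfn5 and Stat2, whose upstream matches are printed above, had no overlap between groups and were not called (adjusted p = 0.293, 0.410, 0.337 and 0.443).

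The same list was read with LIF in the other settings. With CpG-A, 0 members were higher and 6 lower at an unadjusted p under 0.05 (3.03% and 3.05% of all genes), with a median of -0.22. In LIF against medium, 15 were higher and 4 lower (4.23% and 6.08% of all genes), with a median of 0.18. The difference of LIF readings passed an unadjusted p under 0.05 for 2 members between CpG-B and CpG-A (5.11% of all genes) and for 21 members between CpG-B and medium (9.87% of all genes).

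The interferon genes themselves were not called. Of 13 measured type I and III interferon genes, 0 were higher and 0 lower at an unadjusted p under 0.05 when LIF was added to CpG-B (median -0.16). When LIF was added to CpG-A, 8 had nearest readings below 0 and 1 above 0 at that threshold, with a list median of -1.22. All of these readings, and the median, lie beyond the limit for a direction, so none has a readable direction. The smallest in size was -1.17 for Ifna9. The gene above 0 was Ifna11, at 1.65 ± 0.34. That lies near the end of the range of nearest readings, so Ifna11 is not shown to differ in direction from the others. Ifnb1, interferon beta, read -0.21 ± 0.23 with CpG-B and -1.22 ± 0.23 or 2.10 with CpG-A. Ifna4 read -0.31 ± 0.32 with CpG-B and -1.61 ± 0.32 or 1.71 with CpG-A. Neither difference was called (adjusted p = 0.930 and 0.930). At an unadjusted p under 0.05 the difference of LIF readings, CpG-B minus CpG-A, passed for 8 of the 13 genes (5.11% of all genes). In these genes the sign of the difference rests on CpG-A readings beyond the limit.

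Genes of growth leaned the other way. All 29 measured ribosome biogenesis genes had readings above 0 (51.0% of all genes did), from 0.15 to 0.51 with a median of 0.33. None was called, 11 were higher at an unadjusted p under 0.05 (37.9%, against 4.28% of all genes) and 0 lower, and in 16 the CpG-B + LIF arrays all lay above the CpG-B arrays (7.23% of all genes). The medians on the arrays were 0.37, 0.35 and 0.24 with LIF, against 0.03, 0.07 and -0.10 without it. Mybbp1a, a nucleolar protein of rRNA synthesis, read 0.51 ± 0.14, and Gar1, of the complex that modifies uridines in rRNA, stood at 0.38, 0.31 and 0.47 with LIF, against 0.10, -0.08 and -0.02 without it (0.39 ± 0.11). Bop1 and Pes1, partners in making the large subunit, read 0.46 ± 0.13 and 0.48 ± 0.18. The count of 11 was 4 without CpG-B + LIF replicate 1 and 5 without CpG-B replicate 3. In LIF against medium the list had 0 higher and 3 lower with a median of -0.11, and with CpG-A 2 and 0 with a median of 0.16.

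Cell cycle and DNA replication genes had a median of 0.28 over 36 members, 31 of them above 0. None was called, 9 were higher at an unadjusted p under 0.05 (25%) and 1 lower (2.78%), against 4.28% and 3.46% of all genes. Most of the higher ones were subunits of the MCM helicase, which opens DNA at replication origins. Mcm3 stood at 0.72, 0.57 and 0.57 with LIF, against 0.29, -0.12 and -0.17 without it (0.62 ± 0.18, adjusted p = 0.293), and Mcm5 and Mcm4 read 0.62 ± 0.18 and 0.59 ± 0.17. Rrm2, a subunit of the enzyme that makes deoxyribonucleotides, read 0.75 ± 0.29. The lower member was Ccnd1, cyclin D1, at -0.63, -0.59 and -0.74 with LIF, against -0.20, 0.18 and 0.02 without it (-0.65 ± 0.16, adjusted p = 0.190). The count of 9 was 14 without CpG-B replicate 1 and 6 without CpG-B replicate 2. Of 17 glycolysis genes, 3 were higher (17.6%) and 0 lower at that threshold, among them lactate dehydrogenase A, Ldha, at 0.62 ± 0.17.

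**Figure D2:**
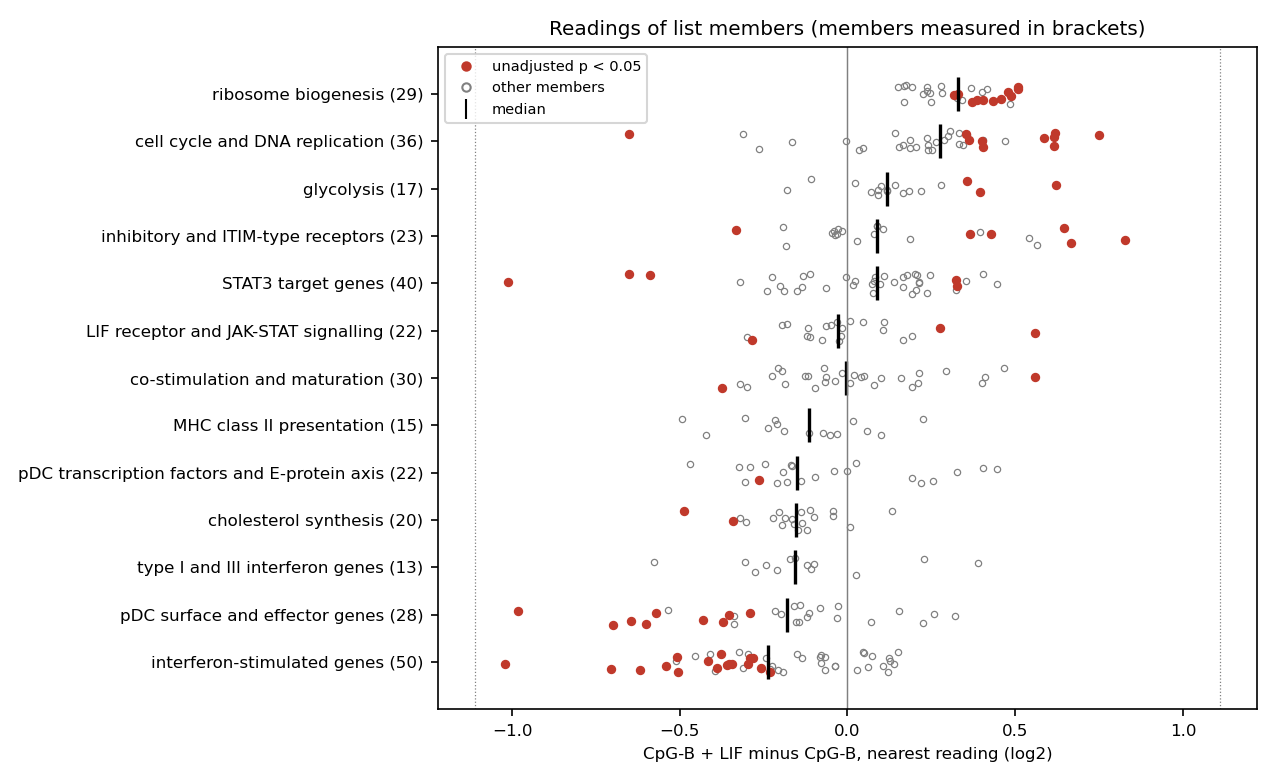
Nearest reading of each measured member of 13 gene lists (log2, CpG-B + LIF minus CpG-B); red points passed an unadjusted p under 0.05, open grey points did not, black bars are list medians, and dotted lines mark the direction limit of 1.11. Medians run from 0.33 for ribosome biogenesis to -0.24 for interferon-stimulated genes.

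**Figure D3:**
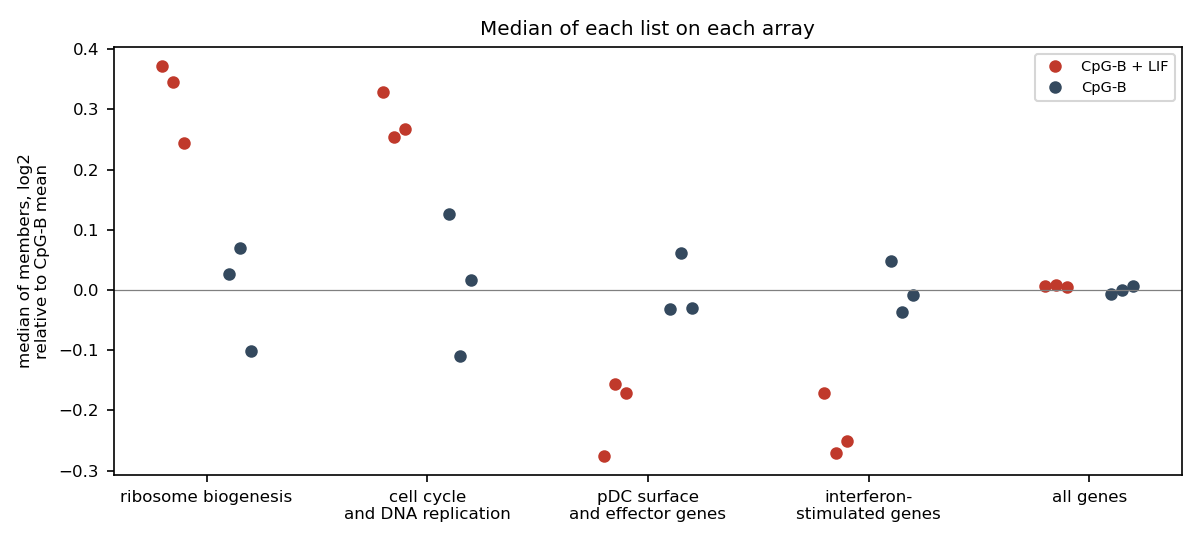
Median of the members of 4 lists and of all genes on each array, log2 relative to the CpG-B mean; in each pair the left points are the 3 CpG-B + LIF arrays and the right points the 3 CpG-B arrays. Ribosome biogenesis lies above 0 on all CpG-B + LIF arrays, interferon-stimulated genes lie below 0, and all genes lie near 0 on every array.

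No gene of the LIF pathway itself was called. Of 22 LIF receptor and JAK-STAT genes, 2 were higher (9.09%) and 1 lower (4.55%) at an unadjusted p under 0.05, against 4.28% and 3.46% of all genes, and the median was -0.03. The higher ones were Socs2 (0.56 ± 0.25) and Ptpn11 (0.28 ± 0.13), and the lower one was Jak2 (-0.28 ± 0.12). Lifr read -0.11 ± 0.11, Il6st 0.01 ± 0.13 and Stat3 -0.20 ± 0.11. Socs3, whose upstream STAT match is shown above, stood at 0.13, 0.05 and 0.14 with LIF, against 0.21, -0.18 and -0.03 without it (0.11 ± 0.16), with overlapping groups. Among 40 STAT3 target genes, 2 were higher (5%) and 3 lower (7.50%), with a median of 0.09. Bcl3, an IkB family co-factor, read 0.19 ± 0.21 and the kinase gene Pim1 0.17 ± 0.18, while Hspb1, a small heat shock protein gene, read -1.01 ± 0.27 and the transcription factor gene Irf1 -0.59 ± 0.20.

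Genes by which a CpG-B response is usually followed were not called either. Tnf read -0.07 ± 0.18, Il6 0.46 ± 0.26, Il12b -0.05 ± 0.29 and the anti-inflammatory Il10 0.21 ± 0.29. The co-stimulatory genes Cd40 and Cd86 read -0.10 ± 0.17 and 0.41 ± 0.21, and the inhibitory ligand Cd274 -0.32 ± 0.19. Across 30 co-stimulation and maturation genes, 1 was higher and 1 lower at an unadjusted p under 0.05 (3.33% each), and across 22 NF-kB genes 0 and 1 (4.55%), against 4.28% and 3.46% of all genes. The lymph node homing receptor Ccr7 read 0.16 ± 0.18, the MHC class II chain gene H2-Ab1 -0.21 ± 0.20 and the CpG receptor Tlr9 -0.03 ± 0.11. A reading that was not called is not thereby shown to be the same in both groups.

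Receptors and chemokines held single genes with larger readings. Of 23 inhibitory receptors, 5 were higher (21.7%) and 1 lower (4.35%) at an unadjusted p under 0.05, against 4.28% and 3.46% of all genes. This share is not separate from the marker counts above. Cd22, Clec4a4 and Cd5 were also counted there as higher markers of B cells, conventional dendritic cells and T cells. Cd22, an inhibitor best known from B cells, stood at 1.03, 0.60 and 0.85 with LIF, against 0.18, -0.12 and -0.06 without it (0.83 ± 0.23, adjusted p = 0.270), and Cd300a read 0.65 ± 0.21. Of 28 chemokine genes and receptors, Xcl1 was called, and 1 had a reading above 0 (3.57%) and 5, Xcl1 included, below 0 (17.9%) at that threshold. Cxcl10, an interferon-induced attractant of T cells, read -0.60 ± 0.20. Of 26 growth factor and cytokine receptors, 1 was higher (3.85%) and 3 were lower (11.5%), with Il7r, the interleukin-7 receptor, at -0.63, -0.36 and -0.85 with LIF, against 0.03, 0.11 and -0.14 without it (-0.62 ± 0.13, adjusted p = 0.111).

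Whether the LIF readings differed between CpG-B and CpG-A was tested on groups that share no arrays. The difference of LIF readings, CpG-B minus CpG-A, was called for 0 genes by limma (0.00%), with 1009 at an unadjusted p under 0.05. The count was 2 with the noisiest 10% of genes left out and 2 without CpG-A + LIF replicate 1. The smallest adjusted p was 0.104, for Map2k3os (1.43 ± 0.22), followed by 0.242 for Tubb3, Proser3, Il7r, Tspan2 and Sh2d1b1. Il7r read -0.62 ± 0.13 with CpG-B and 0.38 ± 0.13 with CpG-A. LIF added to CpG-A called 1 gene of its own, Ifna12 (0.00506%), with a reading of -1.58 ± 0.23 or 1.74 there, so of unknown direction, and -0.17 ± 0.23 with CpG-B.

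The 6 genes that read lower with CpG-B were also below 0 with CpG-A, though none was called there. Nrp1 read -0.59 ± 0.13, St8sia1 -0.55 ± 0.18, Jaml -0.49 ± 0.16, Cdh1 -0.38 ± 0.15, Arl14 -0.31 ± 0.14 and Mctp2 -0.13 ± 0.14. In LIF against medium, only 1 of these 6 genes had a nearest reading below 0. The 3 genes that read higher with CpG-B were closer to 0 with CpG-A, at 0.02 ± 0.13 for Osbpl3, -0.03 ± 0.12 for Nefh and -0.18 ± 0.15 for Vmn1r174. Across all genes, which are not independent replicates, Pearson's r between the LIF readings was 0.17 for CpG-B and CpG-A, and 0.00 for CpG-B and medium.

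Against LIF in medium (3 LIF and 2 medium arrays) the difference of LIF readings was called for 27 genes (0.137%). LIF against medium called 160 genes (0.810%), of which 1, Cdh1, was also called with CpG-B. With CpG-B, 28 of the 160 (17.5%) passed an unadjusted p under 0.05, against 7.74% of all genes. Cdh1 read -0.85 ± 0.15 with CpG-B and 0.93 ± 0.17 in medium, a difference of -1.78 ± 0.23 (adjusted p = 0.00229). Arl14 differed by -1.24 ± 0.21 (adjusted p = 0.0239) and Vmn1r174 by 1.39 ± 0.23 (adjusted p = 0.0162), with readings in medium of 0.26 ± 0.16 and -0.48 ± 0.17. For 8 of the 27 genes both readings were within the limit for a direction.

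In several of the 27 the larger reading was the one in medium. Lilr4b, a receptor gene of the leukocyte immunoglobulin-like family, read -0.24 ± 0.14 with CpG-B and 1.54 ± 0.16 or -1.78 in medium. Casp4, the caspase of the non-canonical inflammasome, read -0.47 ± 0.15 with CpG-B and 1.22 ± 0.17 or -2.10 in medium. Thra, a thyroid hormone receptor, read 0.27 ± 0.13 with CpG-B and -1.13 ± 0.14 or 2.20 in medium. None of these 3 genes was called with CpG-B, and their direction in medium cannot be read. Socs3 read 0.11 ± 0.16 with CpG-B and -1.49 ± 0.18 or 1.83 in medium (adjusted p of the difference = 0.00920). The count of 27 was 6 and 5 without medium replicates 1 and 3, 14 and 17 without CpG-B replicates 1 and 3, and 15 without CpG-B + LIF replicate 1.

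**Figure D4:**
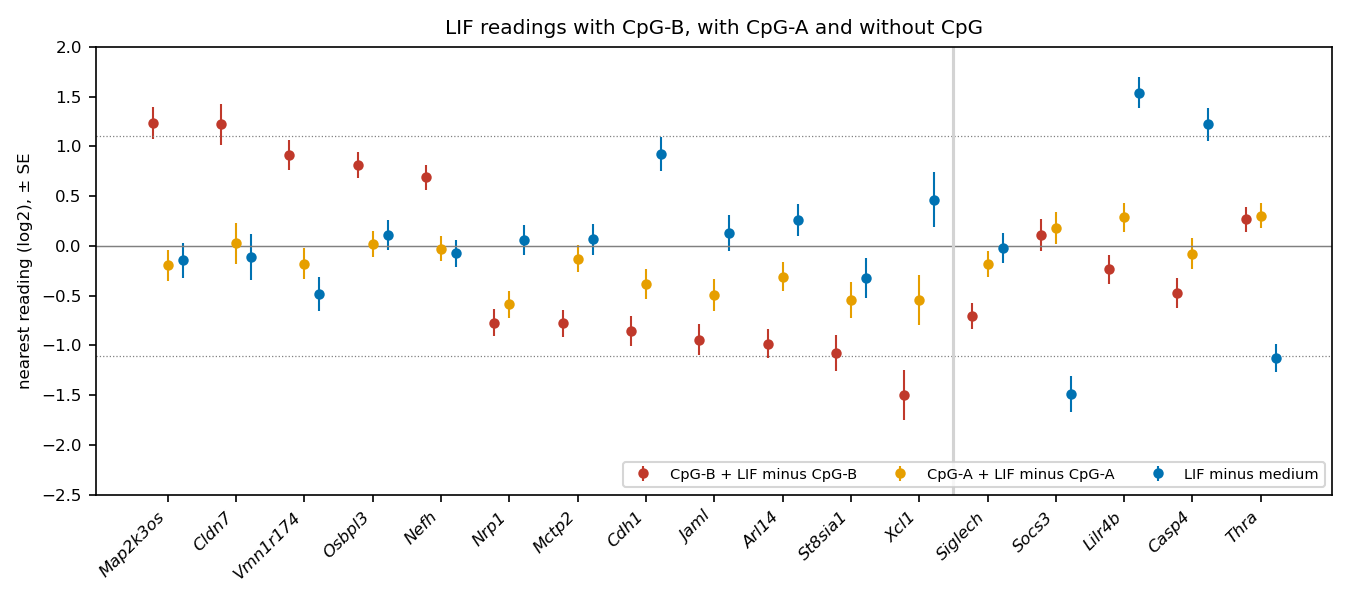
Nearest LIF reading (log2 ± SE) with CpG-B (red), with CpG-A (orange) and without CpG (blue) for the 12 called genes, left of the vertical line, and for Siglech, Socs3, Lilr4b, Casp4 and Thra, right of it; dotted lines mark the direction limit of 1.11. The 6 genes that read lower with CpG-B are below 0 with CpG-A, and Cdh1 is at 0.93 in medium.

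CpG-B against medium shares the CpG-B arrays, so its values are only set beside those of LIF. It called 3795 genes (19.2%). Arl14 read -0.98 ± 0.14 for LIF added to CpG-B and -1.03 ± 0.16 for CpG-B against medium, and Tsc22d1 read -0.83 ± 0.16 and 0.81 ± 0.18. For CpG-B against medium the direction was unknown for Siglech (1.40 or -1.92), Nrp1 (1.28 or -2.05), St8sia1 (1.34 or -1.98), Mctp2 (-1.24 or 2.08) and Cdh1 (-1.59 or 1.74).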

How the data were processed

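Biotin-labelled RNA was hybridised to single-channel Affymetrix arrays, per the labels' protocols. The deposited values were made by the authors with RMA, per the submitters' processing notes, and are the digits of linear intensities without the decimal mark (1 of 419560 cells kept it). Neither levels nor a filter on low signal could therefore be used, and precision rests on how many arrays a group has. Of 24680 probe sets, 21354 had 1 gene symbol, 1275 several and 2051 none, and each of the 19751 genes was read from the probe set with the most accessions. Log2 values were folded to the period of log2(10), and each array was placed nearest its group's circular mean. limma 3.58.1 (R 4.3.3) was fitted to all 17 arrays with a coefficient for each group (11 residual degrees of freedom). Benjamini-Hochberg adjustment ran over all genes, with calls under 0.05. For a difference of LIF effects, one nearest reading was subtracted from another. The fit was also run on simulated data with independent noise for each gene and array and no replicate effect. That run cannot speak to the calls made with a block or to the list counts.

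The titles number the replicates, but the labels name no pairing of CpG-B + LIF with CpG-B. Between these groups, deviations from the group means correlated at 0.13, 0.24 and 0.14 for equal numbers, and at -0.14 to 0 for unequal ones. Deviations within a group sum to 0, so the values for unequal numbers largely follow from the others and are not separate evidence of pairing. Equal numbers correlated at 0.08, 0.17 and 0.01 between CpG-A + LIF and CpG-A, and at -0.02 and -0.02 between LIF and medium. The block nevertheless fits the same replicate effect in all groups, these included. Calls made only with the block rest on that shared effect. Genes and lists were chosen with earlier results of these data known. Named by rule were the called genes, 25 genes of LIF, pDC and CpG biology, and the 6 genes with the smallest adjusted p in each difference. List examples and genes called only with the block were picked after their values were seen. Upstream sequences are RefSeq's (GRCm38.p6), searched with Python 3.11.15. Alternatives changed the block, the arrays in the fit, the probe sets, the scaling, the noise filter, the variance moderation, the unfolding and the direction limit.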

Additional observations from a re-analysis of the deposited data

Results flagged for a closer look

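The LIF readings with CpG-B and in medium differed, by limma's test of the difference itself, for 27 genes. Among the named ones the difference, CpG-B minus medium, was -1.78 for Lilr4b, -1.88 for Il13ra1, -1.78 for Cdh1, -1.69 for Casp4 and -1.69 for Tbc1d4. It was 1.39 for Thra, 1.39 for Vmn1r174, -1.24 for Arl14, 1.38 for Map2k3os and 1.60 for Socs3. For the chemokine gene Xcl1 it was -1.97, and for Cd69, an early activation antigen, -1.67. Of these genes, Cdh1, Vmn1r174 and Arl14 had both readings within the limit for a direction, and for the others the sign of the difference rests on the nearest reading.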

How the results depend on the processing

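The 9 called genes with a readable direction kept it in 153 of 153 values under alternatives and stayed called in 64. Their groups do not overlap, so leaving out an array left little room for a reversal. The noise filter, the variance moderation and the direction limit do not change the reading at all. The kept direction is therefore weak evidence of robustness. With the replicate block the calls were 19, the genes reading lower 11 and the differences from medium 53. With only the groups of the contrast they were 0 calls, 0 higher, 0 lower, 17 differences from medium and 17 ribosome biogenesis genes. With the block as well these groups gave 0 calls, 0 higher, 0 lower, 19 ribosome biogenesis and 14 cell cycle genes. Without the noisiest 10% of genes there were 35 calls, 11 higher, 21 lower, 2 differences from CpG-A and 82 from medium. A direction limit of 0.83 left 2 lower. Leaving out replicates gave 0 to 9 calls, 0 to 2 higher, 0 to 4 lower, 8 to 14 interferon-stimulated, 4 to 13 ribosome biogenesis and 6 to 14 cell cycle genes, 0 to 2 differences from CpG-A (2 without CpG-A + LIF replicate 1) and 5 to 37 from medium. The fits that combine the block with fewer groups or replicates were chosen after seeing the data. Readings that changed sign when replicates were left out ranged as -1.60 to 1.63 for Xcl1, -0.075 to 0.16 for Il6st, -0.039 to 0.44 for Bcl3, -0.072 to 0.040 for Tlr9, -0.49 to 0.070 for Ifnb1, -0.55 to 0.021 for Ifna4, -0.23 to 0.15 for Il12b, -0.023 to 0.47 for Il10, -0.16 to 0.0044 for Cd40, -1.63 to 1.66 for Sh2d1b1, -0.22 to 0.047 for Tbc1d4 and -1.57 to 1.52 for Ccl12. Differences from medium ranged as -1.98 to 1.39 for Il13ra1, -1.82 to 1.55 for Tbc1d4, -2.11 to 1.16 for Xcl1, -1.44 to 1.71 for Socs3 and -1.80 to 1.22 for Cd69. Il13ra1 stood at 1.35 with the replicate block, 1.36 with the block and only the groups of the contrast, and 1.44 with arrays unfolded at the widest gap, where Ccl12 read -0.88. The cause of these changes was not tested.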

Other observations

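A list of nucleotide and folate metabolism genes, written after values had been seen, had 15 of 30 members higher at an unadjusted p under 0.05 (4.28% of all genes were) and 0 lower, with a median of 0.36. The medians on the arrays were 0.48, 0.37 and 0.32 with LIF, against 0.05, 0.00 and -0.04 without it. Slc19a1, the reduced folate carrier, stood at 0.66, 0.65 and 0.67 with LIF, against 0.04, -0.20 and 0.16 without it (0.66 ± 0.13, adjusted p = 0.0671). Umps and Cad, enzymes of pyrimidine synthesis, read 0.60 ± 0.13 and 0.62 ± 0.14. None was called. The median of the list was 0.14 with CpG-A and -0.07 in LIF against medium.

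In the other lists the counts are again at an unadjusted p under 0.05, where 4.28% of all genes were higher and 3.46% lower. Of 32 immediate early and quiescence genes, 1 was higher and 2 were lower, with the anti-proliferative gene Btg2 at -0.70, -0.74 and -0.62 with LIF, against -0.11, 0.06 and 0.06 without it (-0.69 ± 0.14). Of 20 cholesterol synthesis genes, 18 were below 0 and 2 were lower at an unadjusted p under 0.05 (median -0.15). Of 30 oxidative phosphorylation genes, 26 were above 0 and 1 was higher (median 0.09). Npc1, which exports cholesterol from lysosomes, read -0.49 ± 0.11, and Prdm1, the plasma cell regulator, 0.75 ± 0.20. Endosomal TLR genes had 0 higher and 2 lower of 26, lysosome genes 0 and 2 of 28, and cytokine genes 0 and 1 of 29. BCL2 family genes had 2 higher and 0 lower of 14 (14.3% higher), and STAT5 targets 2 and 0 of 12 (16.7% higher). These shares are not separate, because Bcl2 was among the higher genes of both lists. Socs2, the other higher STAT5 target, was also counted among the JAK-STAT genes. MHC class I genes (16), MHC class II genes (15), unfolded protein response genes (28) and heat shock genes (22) had 0 members at that threshold in either direction. No gene of these lists was called by limma.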
